A study of Mus musculus with 14 samples.

Results

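Blood and lymphatic endothelial genes and the growth factors that act on them were followed in whole fetal mouse ovaries. Controls were compared with conditional knockouts of Coup-tfII (symbol Nr2f2), a nuclear receptor. The set held 43 genes, chosen by name, of 18193 genes on the Affymetrix arrays, and 76 probe sets carried one of these names as their only gene symbol, of 34945 probe sets with 1 symbol. The genes fell into 23 pan-endothelial genes, 5 arterial, 3 venous and 4 lymphatic genes and 8 growth factors. In all, 40 of the 43 were bright enough to be tested, and Gja5, Prox1 and Lyve1 were not.

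The study holds 14 arrays: E14.5 is covered by 3 control and 3 knockout ovary samples and E16.5 by 4 of each, named as biological replicates. Knockout embryos carried WT1-CreERT2 and floxed COUP-TFII alleles, and the dams of all groups had received tamoxifen at 2 mg per 10 g body weight at E11.5 and again at E12.5. Arrays were therefore made 2 or 4 days after the last dose. All embryos had a mixed background of C57BL/6, Swiss Webster and B6129SF1/J. The genotype of the controls, including whether they carried the recombinase, and whether an array holds 1 embryo or a pool are unknown from the labels, so p-values measure the spread between these samples. The recombinase is driven from the Wt1 locus, which is active in coelomic epithelium and in somatic cells of the gonad. Which vessel cells lost the gene was not measured.

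Vessels grow when VEGF ligands from the surrounding tissue bind receptors on endothelial cells: VEGFA acts through KDR and is held back by the decoy FLT1, while VEGFC and VEGFD act through FLT4, mainly on lymphatic cells. A second system, the angiopoietins and the receptors TEK and TIE1, keeps vessels quiescent when ANGPT1 is bound and loosens them when ANGPT2 takes its place. COUP-TFII is best known in vessels for upholding venous identity and for acting with PROX1 in lymphatic cells. In whole-ovary RNA, fewer cells of a type and less RNA per cell cannot be told apart.

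Values are linear MAS5 signals, scaled to the same trimmed mean on every array, and changes are differences of log2(signal + 16) with their standard error (SE). A gene is said to rise or fall where the limma test, adjusted by the Benjamini-Hochberg method over all 12406 genes tested, passed 0.05. Signals of different genes are not compared with each other. The endothelial markers were detected on every array, with a lowest signal of 203 for Pecam1, 580.0 for Cdh5 and 913 for Kdr, and the ovarian genes Foxl2 and Ddx4 had at least 1152.5 and 1097. Median signals per array were between 90.01 and 102 for the younger stage and between 118 and 136 for the older. The log2 difference between the 3' and 5' probe sets of Gapdh, a measure of how far labelled RNA reaches from the 3' end, was -0.42 to -0.06 at E14.5, 1.67 to 1.82 in E16.5 controls and 0.94 to 1.63 in E16.5 knockouts. The bioB hybridization control read 9857 and 16119.7 on E16.5 knockout arrays 1 and 4, while the remaining arrays of that stage had 3719 to 5014. On the E14.5 arrays it read 1190.5 to 1434.8.

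The targeted gene Nr2f2 was lower on all E16.5 knockout arrays than on all controls for 5 of its 6 probe sets. The probe set used for the gene averaged 4332 ± 467 in E16.5 controls and 2534 ± 575 in knockouts (SD, n = 4). Its change of -0.79 ± 0.22 (SE) did not pass (limma adjusted p = 0.0753), nor did that at E14.5 (-0.67 ± 0.25, limma adjusted p = 0.444). The probe set with the largest fall (-2.57 ± 0.46, SE) read 1984, 1886, 1797 and 2227 in E16.5 controls and 302, 270.0, 409 and 303 in knockouts. At E14.5 the same probe set read 19.3, 349.7 and 207 in controls and 34.6, 65.6 and 79.1 in knockouts, so the library labelled E14.5 control replicate 1 lay below the knockouts. The E14.5 count and the E14.5 changes of Thbd and Vegfd are therefore also given without that array, which was also the highest E14.5 control for Plvap and Eng. Which of the probe sets lie in the deleted part is unknown here. Wt1, whose locus drives the recombinase, averaged 4220 ± 200 in E16.5 controls and 3268 ± 143 in knockouts (SD, n = 4). All its knockout arrays were below all controls, and the change of -0.37 ± 0.13 (SE) did not pass (limma adjusted p = 0.143). Whether the groups differ at that locus was not tested.

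Thbd, Plvap and Vegfd rose and Tek and Angpt1 fell in E16.5 knockout ovaries, by log2 changes of 1.12 ± 0.15, 1.18 ± 0.21, 1.61 ± 0.33, -0.68 ± 0.15 and -1.11 ± 0.23 (SE, n = 4 per group). These were the 5 of 40 members that passed, 3 higher and 2 lower, against 1.42% of all genes tested (0.967% higher and 0.451% lower). The members were chosen with such results known, so their share is a description. The knockout arrays lay all above the controls for 7 members (6.22% of all genes) and all below them for 5 (4.22%), together 12 of 40, against 10.4% of all genes. An unadjusted p under 0.05 was seen for 14 of 40, against 18.3% of all genes. At the level of single probe sets 6 probe sets of members passed, 4 higher and 2 lower, against 0.918% of all (0.537% higher and 0.381% lower). The median log2 change over the 40 members was 0.14, and 0.05 over all genes, and 28 were positive and 12 negative. The Gapdh difference was lower on every E16.5 knockout array than on every E16.5 control, and with it as a covariate Thbd alone passed of the 5. No member passed at E14.5.

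**Figure D1:**
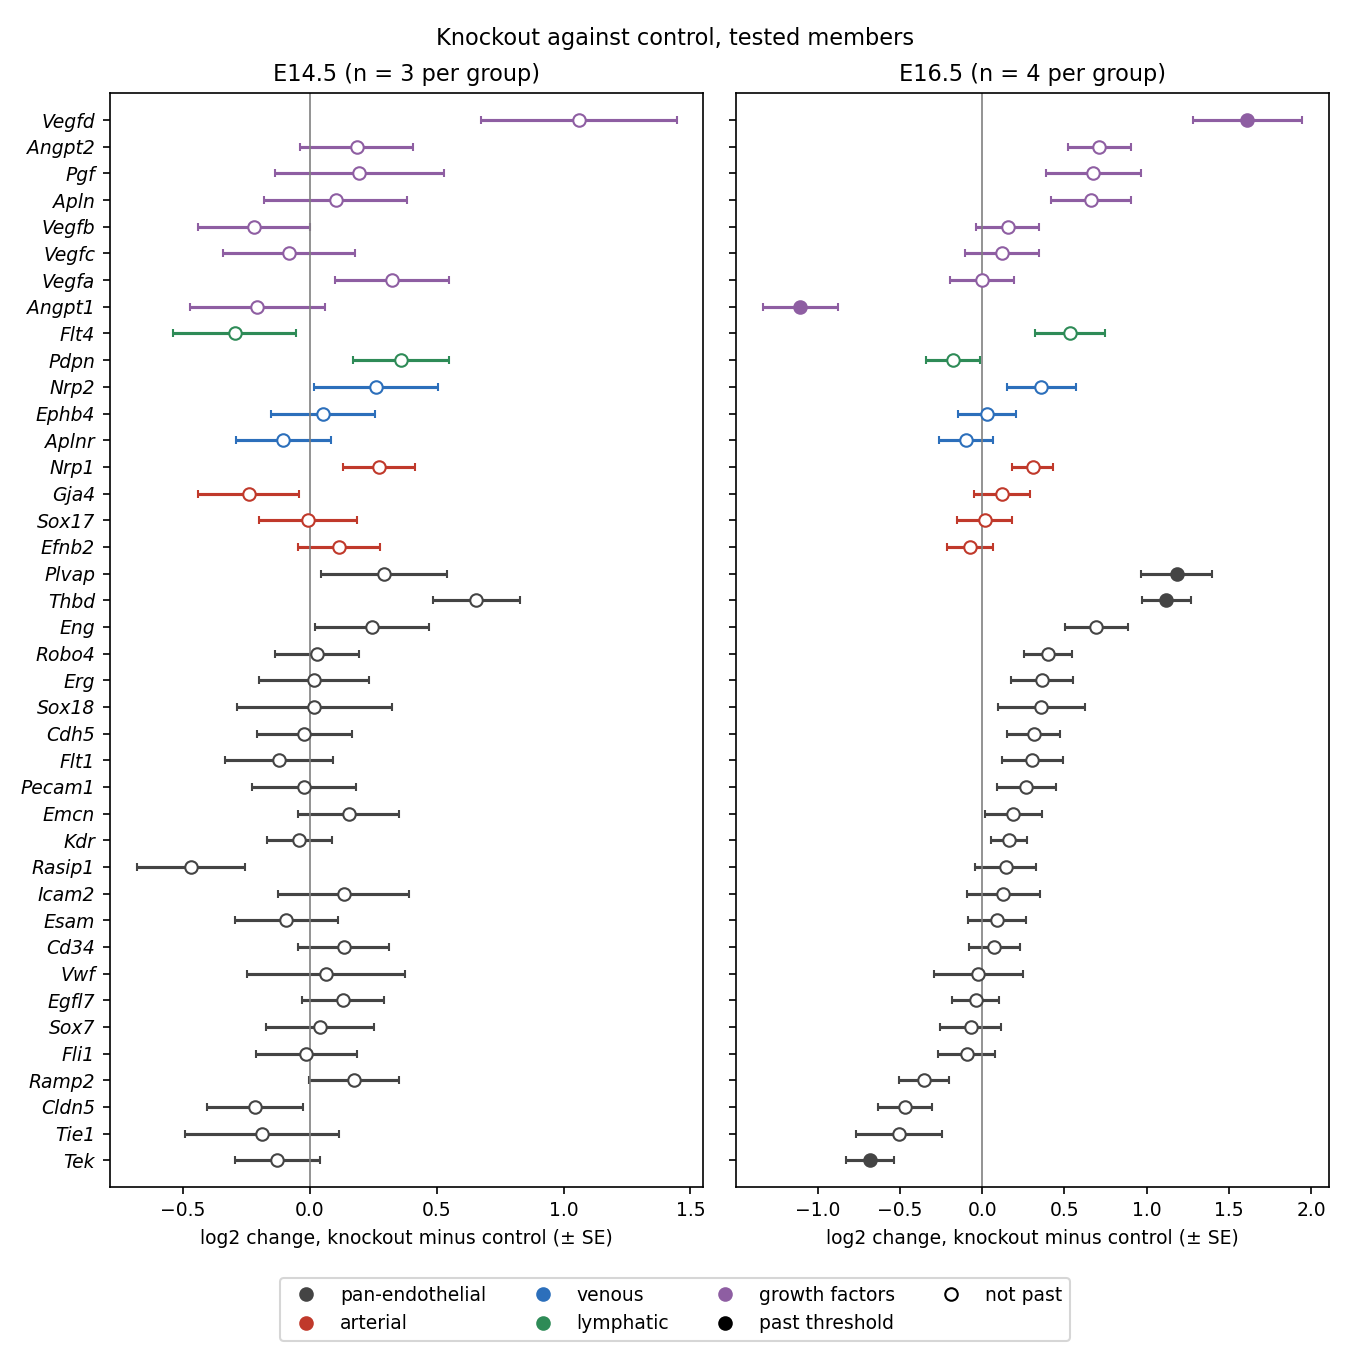
Log2 change of each tested member, knockout minus control, with its SE, at E14.5 (left, 3 arrays per group) and E16.5 (right, 4 arrays per group), coloured by class, with filled points past the threshold. The 5 filled points, all at E16.5, run from -1.11 (Angpt1) to 1.61 (Vegfd), and most of the other members lie near 0.

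Among the pan-endothelial genes, Thbd encodes thrombomodulin, an anticoagulant receptor of endothelium that mesothelial cells also make. At E16.5 its signal was 522, 458, 515 and 565 on the 4 control arrays and 1374, 1037, 1193 and 975 on the 4 knockout arrays. The lowest knockout array thus stood well above the highest control, and the means were 515 ± 44.1 and 1145 ± 178 (SD, n = 4), a ratio of 2.22. Its limma adjusted p was 0.00241, and it ranked at 4 of 12406 genes by p. At E14.5 the controls read 674, 502 and 439 and the knockouts 946, 888 and 715. These groups did not overlap either, and the log2 change of 0.66 ± 0.17 had a limma adjusted p of 0.263. Without E14.5 control replicate 1 the change was 0.82 (limma adjusted p = 0.0805), and without knockout replicate 3 it was 0.77 and passed (limma adjusted p = 0.0481). The E16.5 effect minus the E14.5 effect was 0.46 ± 0.23 (limma adjusted p = 0.571).

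Thbd was the only member to pass at E16.5 under each of 28 alternatives, with log2 changes of 1.03 to 1.19 and a largest limma adjusted p of 0.0414. Without E16.5 knockout replicate 1 it was the only member to pass. It was also the only one without knockout replicates 1 and 4 together, with the Gapdh difference as a covariate, or with bioB as a covariate.

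**Figure D2:**
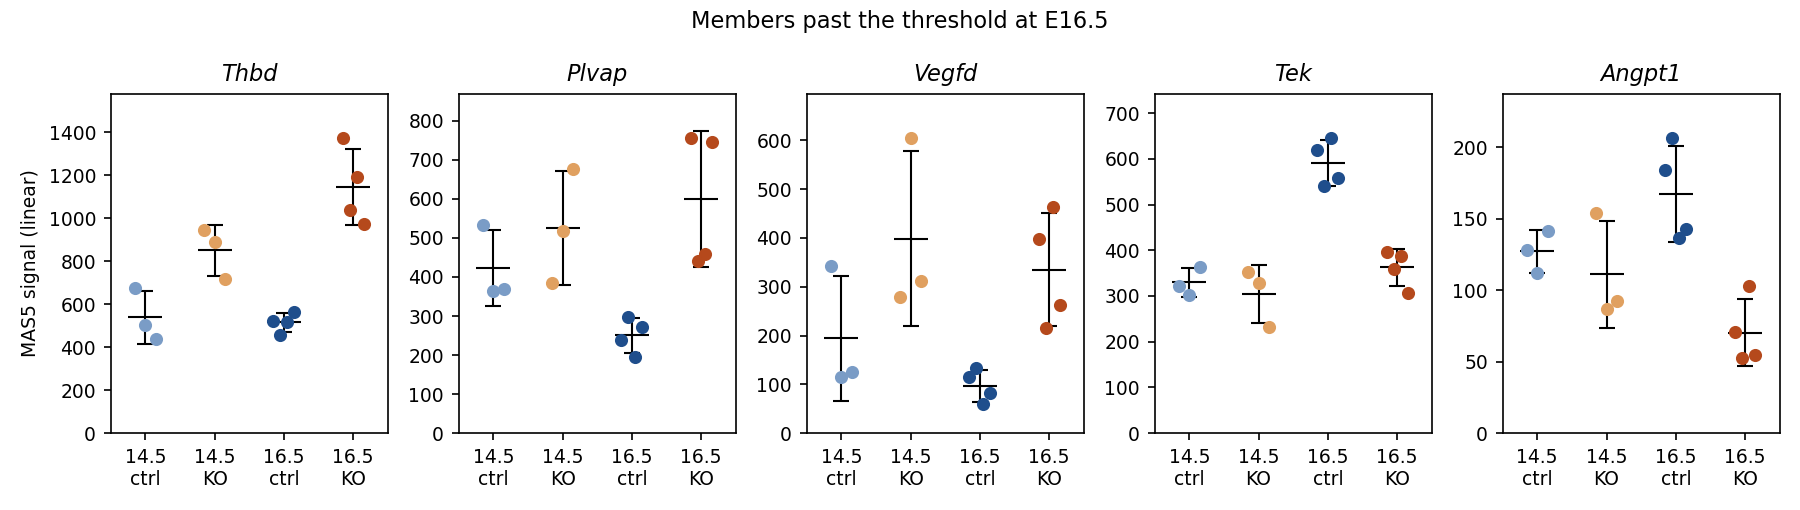
MAS5 signal on each array (points) with the mean and SD (bars) for the 5 members past the threshold at E16.5, in controls (ctrl) and knockouts (KO) at E14.5 and E16.5. Thbd knockouts lie above controls at both stages, and Plvap, Vegfd, Tek and Angpt1 separate the groups at E16.5 and overlap at E14.5.

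Plvap forms the diaphragms of fenestrated endothelium. Its E16.5 signal was 239, 297, 194 and 271 in controls and 756, 442, 458 and 745 in knockouts, with knockout replicates 1 and 4 the highest. The means were 250.2 ± 44.4 and 600.5 ± 174 (SD, n = 4), a ratio of 2.40, with a limma adjusted p of 0.0111. At E14.5 it read 534, 364 and 370.1 in controls and 384, 518 and 677 in knockouts, which overlapped (log2 change 0.29 ± 0.25, limma adjusted p = 0.784). The E16.5 call was lost without knockout replicate 1 (log2 change 1.06, limma adjusted p = 0.0530), and without replicates 1 and 4 together the change was 0.82 (limma adjusted p = 0.228). The bioB signal was highest on the same arrays as Plvap, and with it as a covariate the Plvap change was 0.83 and did not pass (limma adjusted p = 0.263).

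Tek encodes the receptor of the angiopoietins. Its E16.5 signal was 619, 540.4, 646 and 558 in controls and 396, 360.1, 388 and 306 in knockouts, so every knockout array was below every control. The means were 591 ± 49.8 and 363 ± 40.9 (SD, n = 4), with a limma adjusted p of 0.0255. E14.5 controls read 322, 303 and 364 and knockouts 352, 329 and 231, and these overlapped (-0.13 ± 0.17, limma adjusted p = 0.877). Leaving out any one of the 4 E16.5 controls, or knockout array 1 or 4, ended the E16.5 call, with limma adjusted p of 0.0518 to 0.0972. The change stayed at -0.73 to -0.61 in those fits.

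Tie1 encodes the partner of TEK, which binds no angiopoietin on its own. It had 145, 146, 129 and 150.1 in E16.5 controls and 112, 76.3, 118 and 81.1 in knockouts. The knockouts lay below all controls, but the log2 change of -0.51 ± 0.26 did not pass (limma adjusted p = 0.317). At E14.5 it was dim, with 43.4, 58.9 and 68.9 in controls and 20.2, 70.3 and 65.5 in knockouts.

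Angpt1, the ligand that activates TEK, fell. Its brighter probe set read 184, 207, 136 and 143 in E16.5 controls and 70.7, 52.4, 103 and 55.0 in knockouts, means of 167 ± 33.6 and 70.3 ± 23.2 (SD, n = 4). The highest knockout array was below the lowest control (limma adjusted p = 0.0213). The second probe set, too dim to be tested, averaged 124 ± 17.5 over the controls and 44.2 ± 20.3 over the knockouts (SD, n = 4 each), again with no overlap. At E14.5 the brighter one read 128, 112 and 142 in controls and 154, 86.7 and 92.3 in knockouts, with a log2 change of -0.21 ± 0.26 (limma adjusted p = 0.873). Leaving out control array 1 or 2, or knockout array 1 or 4, ended the E16.5 call, at changes of -1.12 to -1.01 and limma adjusted p of 0.0612 to 0.0781.

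Angpt2, the ligand that competes with ANGPT1, had 186, 155, 223 and 130.0 in E16.5 controls and 358, 253, 293 and 264 in knockouts on the probe set used for the gene. All knockout arrays were above all controls, and the log2 change of 0.71 ± 0.19 did not pass (limma adjusted p = 0.0674). It passed without knockout replicate 2 (0.77, limma adjusted p = 0.0495). Over 27 alternatives the change of Angpt2 was 0.35 to 0.83, with limma adjusted p of 0.0495 to 0.575. The other probe set read 286 ± 43.5 (SD, n = 4) and 289.9 ± 77.8 (SD, n = 4), a change of -0.01 ± 0.23 (SE), so the 2 probe sets gave different values. E14.5 arrays read 115, 122 and 105 in controls and 168, 133 and 101 in knockouts on the first one.

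**Figure D3:**
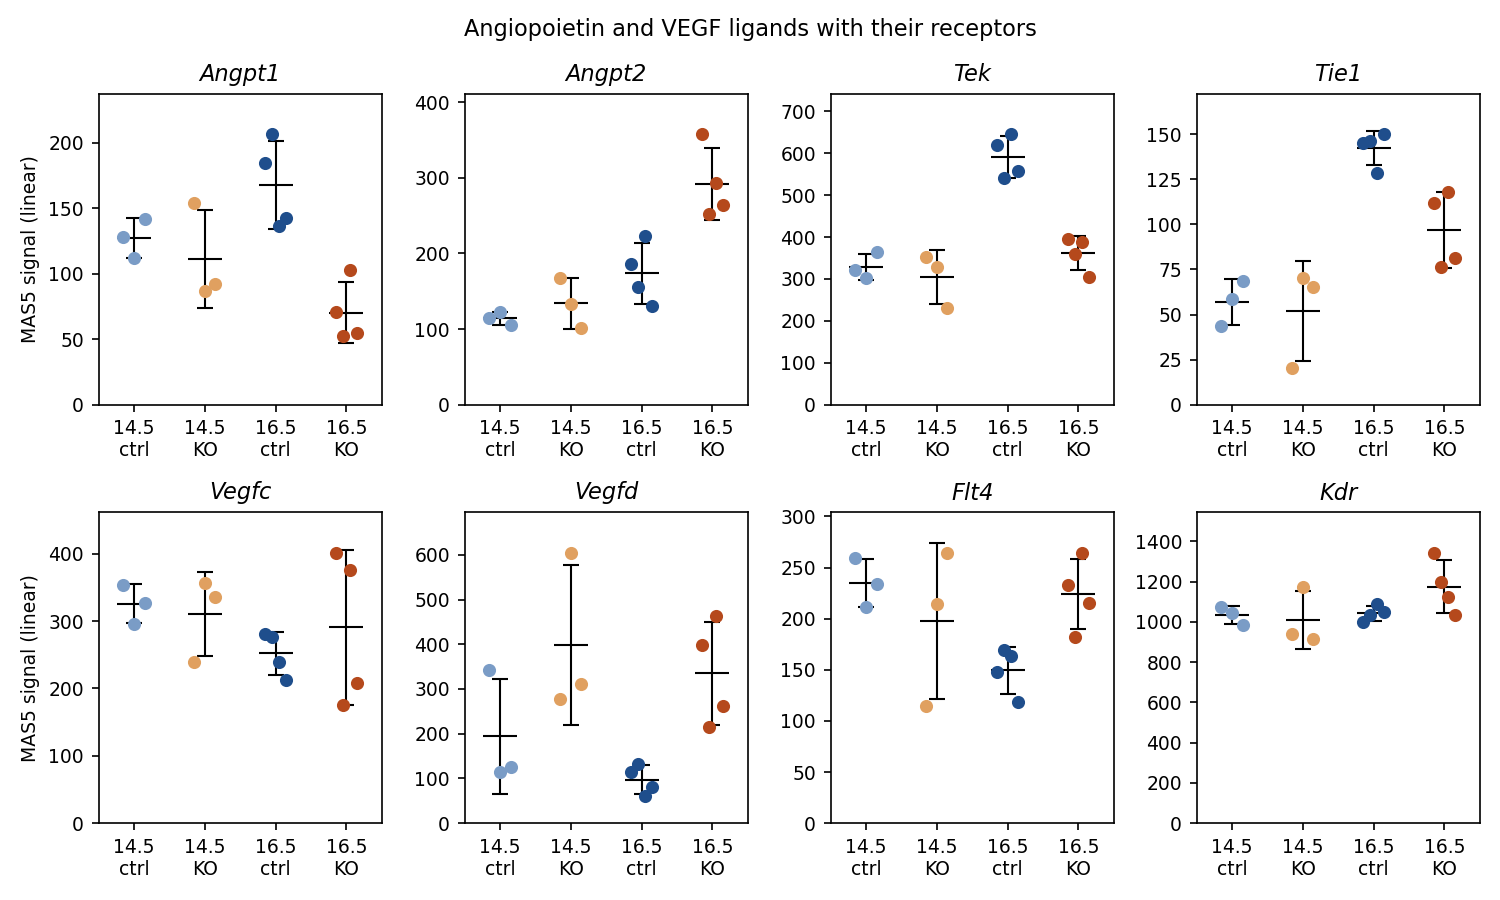
MAS5 signal on each array (points) with the mean and SD (bars) for Angpt1, Angpt2 and the receptors Tek and Tie1 (top) and for Vegfc, Vegfd and the receptors Flt4 and Kdr (bottom). At E16.5 the knockout (KO) arrays lie below the controls (ctrl) for Angpt1, Tek and Tie1 and above them for Angpt2, Vegfd and Flt4, while Vegfc and Kdr overlap.

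Vegfd had the largest change of the tested members. Its brightest probe set read 115, 133, 60.5 and 81.4 in E16.5 controls and 398, 215, 464 and 262 in knockouts, means of 97.5 ± 32.7 and 335 ± 116 (SD, n = 4), a ratio of 3.43. The groups did not overlap (limma adjusted p = 0.0213). That probe set is of a type that can also bind related transcripts, and the other 2 probe sets behaved alike: they read 93.9 and 86.8 on average in controls and 312 and 229 in knockouts, with log2 changes of 1.52 ± 0.33 and 1.23 ± 0.29 (SE), where the limma adjusted p over all 27022 probe sets was 0.0381 and 0.0563. Leaving out control array 3 or 4 or knockout array 1 ended the call (changes of 1.44, 1.56 and 1.51, limma adjusted p = 0.0797, 0.0587 and 0.0834).

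At E14.5 Vegfd read 342, 114 and 126 in controls and 279, 605 and 312 in knockouts. The high control was replicate 1, the array that also had the least Nr2f2 of the E14.5 controls on all 6 probe sets, and the other 2 controls lay below every knockout. The log2 change was 1.06 ± 0.39 (limma adjusted p = 0.424) and 1.53 (limma adjusted p = 0.144) without that array. On the dimmest of the 3 probe sets at E16.5, the E14.5 knockouts lay above all E14.5 controls (1.49 ± 0.34, SE), with a limma adjusted p of 0.199.

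The promoters of Vegfd and Tek are shown because these 2 called members are in the sequence table; Thbd, Plvap and Angpt1 were not matched. Each line gives the 250 bases before the RefSeq start (build GRCm38.p6, plus strand), Vegfd at chrX:164373272-164373521 and Tek at chr4:94739039-94739288. Capitals mark matches on either strand to AGGTCA, the half-site that nuclear receptors of the COUP-TF kind can bind, GGAAG, a core of ETS factor sites, or ACGTG, a core of hypoxia elements.
Vegfd: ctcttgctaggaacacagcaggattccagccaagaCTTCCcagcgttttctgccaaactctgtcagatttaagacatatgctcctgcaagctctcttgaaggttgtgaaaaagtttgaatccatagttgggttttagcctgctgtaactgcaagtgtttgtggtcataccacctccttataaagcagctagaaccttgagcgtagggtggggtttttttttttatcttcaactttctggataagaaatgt
Tek: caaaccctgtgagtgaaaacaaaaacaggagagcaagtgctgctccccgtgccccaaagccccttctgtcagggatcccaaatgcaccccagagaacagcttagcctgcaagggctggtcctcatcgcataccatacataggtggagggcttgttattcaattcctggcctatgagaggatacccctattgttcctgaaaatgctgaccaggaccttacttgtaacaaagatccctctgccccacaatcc
Vegfd had 1 GGAAG match and Tek none, and neither window held AGGTCA or ACGTG. Of 32851 promoter windows of this length, 14% held AGGTCA, 64.1% GGAAG and 16.6% ACGTG. Of the 34 windows of the 27 members matched, 7, 23 and 2 held them.

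The other VEGF ligands did not pass. Vegfa, the main ligand of KDR, read 492, 437, 347 and 487 in E16.5 controls and 395, 303, 546 and 556 in knockouts, which overlapped widely (0.00 ± 0.20, SE; limma adjusted p = 0.998). At E14.5 it read 475, 647 and 559 in controls and 532, 852 and 756 in knockouts (0.32 ± 0.23). Vegfb, a ligand of FLT1, read 547, 489, 293 and 404 in E16.5 controls and 498, 399, 457 and 546 in knockouts (0.16 ± 0.19), and 504, 567 and 471 in controls and 313, 506 and 527 in knockouts at E14.5. Vegfc, which shares its receptor with VEGFD, had 252 ± 32.0 and 291 ± 115 (SD, n = 4), a change of 0.12 ± 0.22 (SE), with changes of 0.03 and 0.05 on its other 2 probe sets. Its knockout arrays spread from 176 to 402, around the controls.

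Pgf, another FLT1 ligand, and Apln, the ligand of APLNR, differed at E16.5 by 0.68 ± 0.29 and 0.66 ± 0.24 without passing (limma adjusted p = 0.225 and 0.166), and their arrays overlapped. Of the 8 growth factors 7 had positive changes at E16.5, with a median of 0.41, against 0.05 over all genes tested. Vegfa is counted there at 0.00, and Angpt1 was the only one below 0.

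No VEGF receptor passed. Flt4, the receptor of VEGFC and VEGFD, had 148, 169.8, 163 and 118 in E16.5 controls and 233, 182, 264 and 215 in knockouts on the probe set used for the gene. The knockouts lay above all controls, and the change of 0.53 ± 0.21 did not pass (limma adjusted p = 0.195). The other probe set had 0.33 ± 0.20 (SE) and overlapped. At E14.5 Flt4 read 259, 212 and 234 in controls and 115, 214 and 265 in knockouts. Kdr, the main VEGFA receptor, read 1000.4, 1035, 1091 and 1048 in E16.5 controls and 1344, 1198, 1125 and 1032 in knockouts (0.16 ± 0.11), with 1072, 1044 and 985 in controls and 940.4, 1175 and 913 in knockouts at E14.5 (-0.04 ± 0.13). Its groups overlapped at both stages. The decoy Flt1 had 0.30 ± 0.18, and none of its 4 probe sets separated the E16.5 groups.

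Of the remaining lymphatic genes, Pdpn, a mucin of lymphatic endothelium and of mesothelium, read 4573, 3950.1, 4019.7 and 3620.3 in E16.5 controls and 3091, 5141, 3649 and 2769 in knockouts, which overlapped (-0.18 ± 0.16, SE; limma adjusted p = 0.594). Its E14.5 arrays read 1191, 1005 and 858 in controls and 1246, 1540.3 and 1140.0 in knockouts. Lyve1, a hyaluronan receptor of lymphatic endothelium and of macrophages, was too dim to be tested. It read 3.0, 63.8, 17.5 and 54.3 in E16.5 controls and 413, 64.05, 131 and 19.1 in knockouts, which overlapped, and 60.1, 60.9 and 2.21 in controls and 131, 245 and 86.0 in knockouts at E14.5, which did not. Prox1, the regulator of lymphatic identity, had at most 95.8 on any array and probe set, and its 3 probe sets all lay below the filter. Whether lymphatic vessels changed in number could not be read from these levels.

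Several pan-endothelial genes separated the E16.5 groups without passing. Eng, a co-receptor for TGF-beta ligands, had 323, 412, 441 and 347 in controls and 745, 519, 518 and 744 in knockouts (0.70 ± 0.19, SE; limma adjusted p = 0.0774). Its other probe set also separated the groups (0.40 ± 0.15, SE). Like Plvap, Eng was highest on knockout replicates 1 and 4. The first probe set passed without knockout replicate 2 (0.78, limma adjusted p = 0.0467). Over 28 alternatives the change of Eng was 0.44 to 0.78, with limma adjusted p of 0.0467 to 0.642. At E14.5 Eng read 488, 329.8 and 351 in controls and 328, 473 and 616 in knockouts. Robo4, a guidance receptor that stabilizes vessels, had 400.4, 455, 420.2 and 475 in E16.5 controls and 509, 549, 602 and 682 in knockouts (0.40 ± 0.14, limma adjusted p = 0.159), and 310.2, 253 and 196 in controls and 248, 258 and 257 in knockouts at E14.5. Eng and Robo4 were the members above all controls in this group besides Thbd and Plvap.

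Cldn5, the tight junction protein of endothelium, was lower on every knockout array, with 491, 390.0, 414 and 457 in E16.5 controls and 283, 258, 378 and 339 in knockouts (-0.47 ± 0.16, SE; limma adjusted p = 0.151). Its E14.5 arrays read 346, 449.7 and 367 in controls and 258, 417 and 331 in knockouts. Ramp2, part of the adrenomedullin receptor, had 932, 815, 729 and 1009 in controls and 724, 641, 636 and 692 in knockouts at E16.5 (-0.36 ± 0.15, limma adjusted p = 0.228) and 393, 633 and 469 in controls and 555, 657 and 464 in knockouts at E14.5. With Tek and Tie1 these were the 4 pan-endothelial genes whose knockout arrays lay below all controls.

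The general markers of endothelial cells did not pass at either stage. At E16.5 Pecam1 had 0.27 ± 0.18, Cdh5, the cadherin of endothelial junctions, 0.31 ± 0.16, and Emcn, a sialomucin of capillaries and veins, 0.19 ± 0.17 (SE). Emcn read 1262, 800.5, 813 and 879 in controls and 1227, 1066, 1264 and 745 in knockouts, and 851, 733 and 662 in controls and 898, 841 and 755 in knockouts at E14.5. Cd34, Esam, Icam2, Rasip1, Egfl7 and Vwf had changes of -0.04 to 0.14, and the transcription factors Sox7, Sox18, Erg and Fli1 of -0.10 to 0.37. Of the 23 genes 2 rose and 1 fell at E16.5, against 0.967% and 0.451% of all genes. The median log2 change was 0.14 (0.02 at E14.5), beside 0.05 and 0.03 over all genes tested.

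Per array, the median of the pan-endothelial genes, each taken as its log2 deviation from its mean over all arrays, was -0.07 to 0.09 on E16.5 controls. It was 0.42, -0.06, 0.11 and 0.05 on the knockouts. Knockout replicate 1 was thus the only E16.5 array that stood apart on the whole class, and it is also the array with the lowest Gapdh difference of that stage.

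The arterial and venous genes separated no groups at E16.5. Of the arterial genes, Efnb2, the ephrin of arteries, read 1164, 1174, 923 and 1108 in controls and 1037, 1165, 1068 and 879.8 in knockouts (-0.07 ± 0.14, SE; limma adjusted p = 0.819), and 1682, 1799 and 1896 in controls and 1890.2, 2534 and 1526 in knockouts at E14.5. Nrp1, a VEGF and semaphorin co-receptor that mesenchyme also makes, read 1429, 1215, 998 and 1063 in controls and 1654, 1278, 1547 and 1330.1 in knockouts at E16.5 (0.31 ± 0.12, limma adjusted p = 0.197). Its E14.5 arrays, 1600.3, 1511 and 1443 in controls and 1701, 1951 and 1865 in knockouts, did not overlap (0.27 ± 0.14, limma adjusted p = 0.618). Sox17, an arterial transcription factor, and the gap junction gene Gja4 had 0.01 ± 0.17 and 0.12 ± 0.17 at E16.5. The other gap junction gene, Gja5, lay between 1.43 and 2.55 on all E14.5 arrays and between 25.6 and 63.3 at E16.5.

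Of the venous genes, Ephb4, the receptor of the arterial ephrin, read 1493, 1482, 1371 and 1417 in E16.5 controls and 1603, 1237, 1339.6 and 1755 in knockouts (0.03 ± 0.18, SE; limma adjusted p = 0.948), and 326, 342 and 416 in controls and 255, 551 and 366 in knockouts at E14.5. Aplnr, the apelin receptor, read 5435, 5189, 4214 and 4821 in controls and 4252, 5012, 6432 and 3189 in knockouts at E16.5 (-0.10 ± 0.16) and 4151, 3782 and 4199.8 in controls and 3379.6, 4531 and 3461 in knockouts at E14.5. Both overlapped at both stages. Nrp2, the co-receptor of VEGFC and VEGFD in veins and lymphatics, had 0.36 ± 0.21 at E16.5 and 0.26 ± 0.24 at E14.5. At E14.5 its knockout arrays lay above all controls on 2 of 4 probe sets. The others overlapped, with changes of -0.08 and, on one too dim to be tested, -0.62. The second of the probe sets that separated the E14.5 groups had -0.05 ± 0.22 (SE) at E16.5. At both stages 0 of the 7 tested arterial and venous genes passed. At E16.5 1 of them, Nrp1, had an unadjusted p under 0.05, against 18.3% of all genes.

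At E14.5, 0 of the 40 members passed in limma, against 0.0403% of all genes, and 3 had an unadjusted p under 0.05 (Thbd, Vegfd and Rasip1, the last with -0.47 ± 0.21), against 8.55% of all genes. The arrays did not overlap for 4 members, Thbd, Nrp1 and Nrp2 above (7.84% of all genes) and Rasip1 below the controls (4.9%). That is 4 of 40, against 12.7% of all genes, so the share is not above the background. Without the library labelled E14.5 control replicate 1 the number that passed was also 0. The median change was 0.03 over the members and 0.03 over all genes.

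A change of the knockout effect with stage passed for 0 of 40 members and 0% of all genes in limma. An unadjusted p under 0.05 was seen for 7 members, against 8.91% of all genes. They were Plvap (0.89 ± 0.33), Flt4 (0.83 ± 0.32), Rasip1 (0.61 ± 0.28), Angpt1 (-0.90 ± 0.35), Tek (-0.56 ± 0.22), Pdpn (-0.54 ± 0.25) and Ramp2 (-0.53 ± 0.23), each E16.5 effect minus E14.5 effect with its SE. The 5 calls at E16.5 are thus not shown to be particular to that stage.

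**Figure D4:**
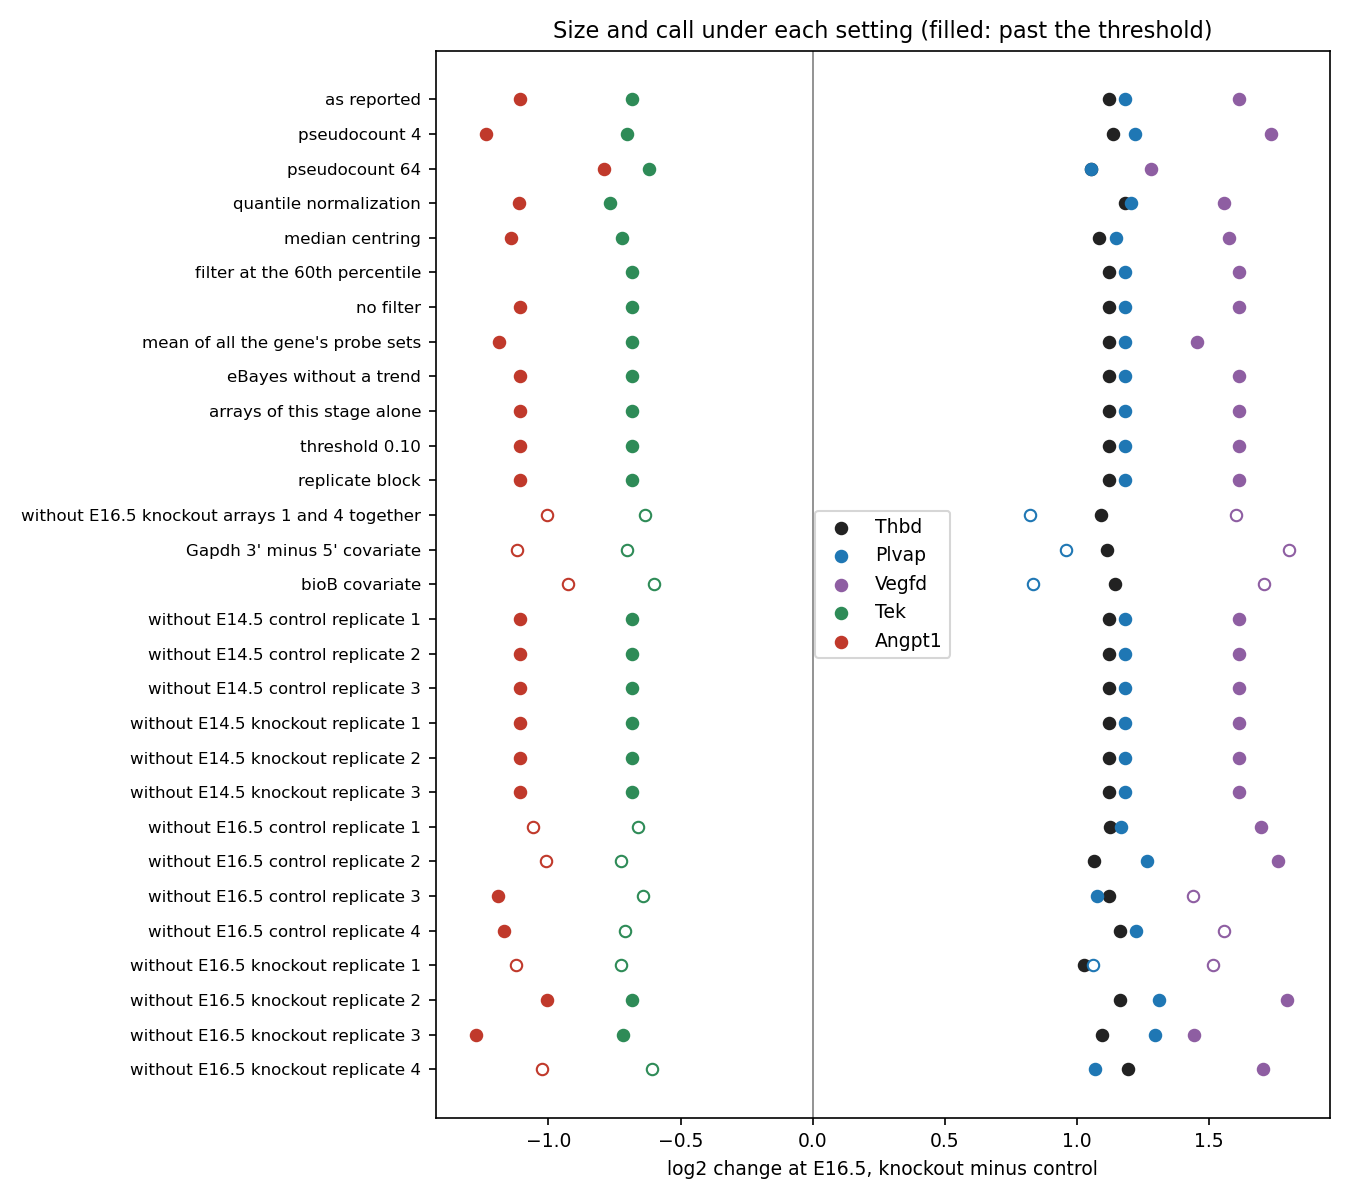
Log2 change at E16.5, knockout minus control, of the 5 called members under each processing alternative and with each array left out, with filled points past the threshold and Angpt1 missing where the stricter filter removed it. Every sign is kept, Thbd is filled throughout, and the other 4 are open without knockout replicate 1 and with either covariate.

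Other genes of the vessel system, from lists set by name, were read the same way at E16.5, where 0.967% of all genes rose and 0.451% fell. Of 27 further endothelial genes tested, 1 rose, 0 fell and the median change was -0.02: Fabp4, a fatty acid carrier of capillaries, rose by 1.56 ± 0.36 (SE; limma adjusted p = 0.0436), a call lost in 13 of 26 alternatives and at 1.14 without knockout replicate 1 (limma adjusted p = 0.110). Leaving out E16.5 control array 1, 3 or 4, E16.5 knockout array 3 or E14.5 control array 2 or 3 ended it too. Of 23 endothelial signalling genes 1 rose and 0 fell, with a median of 0.20. It was the netrin receptor Unc5b, at 0.78 ± 0.15 (SE; limma adjusted p = 0.0143), a call that ended without control array 1 or knockout array 1 (limma adjusted p = 0.0567 and 0.0590). Without both knockout arrays 1 and 4, neither of these calls was made. The Notch genes Notch1, Notch4, Jag1 and Hey1 of that list had changes of -0.14 to 0.21.

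Pericytes, a kind of mural cell, make ANGPT1 in many tissues. The list of mural cell genes also held the ligand Pdgfb and the smooth muscle genes Acta2 and Tagln. Of its 14 tested genes 1 rose and 0 fell, with a median of 0.14. The muscle filament gene Des rose by 1.17 ± 0.25 (SE; limma adjusted p = 0.0292), a call that ended when control array 1 or 3 or knockout array 1 or 4 was left out, and 0.58 as the mean of its probe sets (limma adjusted p = 0.111). Pdgfrb, the defining receptor of pericytes, had -0.07 ± 0.15. Rgs5 had -0.49 ± 0.16 (limma adjusted p = 0.132) with all knockouts below all controls. Mcam had 0.59 ± 0.15 (limma adjusted p = 0.0522) with all knockouts above all controls. Of the 14 changes 11 were positive and 3 negative. Of 14 hypoxia response genes 0 passed and the median was 0.15. At both stages 11 of the changes were positive and 3 negative. At E14.5 0 passed, and an unadjusted p under 0.05 was seen for 5 of the 14, against 8.55% of all genes. At E16.5 it was seen for 2 of the 14, against 18.3% of all genes, so the E16.5 share is not above the background. Car9, which hypoxia induces, had 1.03 ± 0.26 (limma adjusted p = 0.0535) and Ankrd37 0.41 ± 0.15 (limma adjusted p = 0.159).

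Markers of other cell types were read as well, and of these sums the epithelial one alone separated the groups at both stages. The summed signal of 10 coelomic and surface epithelium genes was 8775 to 9022 in E14.5 controls, 11088 to 15163 in E14.5 knockouts, 9513 to 10941 in E16.5 controls and 11967 to 17200.1 in E16.5 knockouts, with no overlap at either stage. Of all single genes tested, 12.7% did not overlap at E14.5 and 10.4% at E16.5. A sum weighs bright genes most. The largest rises in E16.5 group mean were those of Krt19 (1031 and 2382) and Upk3b (3513 and 4945). At E14.5, 0 of the 9 tested genes passed. At E16.5, 2 of 9 tested rose, against 0.967% of all genes tested. They were Krt19 (1.24 ± 0.25, SE, limma adjusted p = 0.0173) and Upk1b (1.01 ± 0.24, SE, limma adjusted p = 0.0438). Of the 9 changes 7 were positive, with Muc16 at 0.03 ± 0.19, and 2 negative, Krt8 at -0.16 ± 0.12 and Krt18 at -0.03 ± 0.11 (SE). Without control array 3 or knockout array 1 Krt19 did not pass. The Upk1b call was lost in 14 of 28 alternatives, among them leaving out E14.5 control array 2 or 3, E14.5 knockout array 2, E16.5 control array 1 or 3, or E16.5 knockout array 1 or 3. The sum of 13 macrophage genes was 4126 to 5207 in E16.5 controls and 4379.9 to 9789 in knockouts, and 1 of 13 rose, C1qb (0.82 ± 0.20, SE; limma adjusted p = 0.0480), lost in 20 of 28 alternatives, among them leaving out any one array other than E16.5 knockout replicate 2 or 4. All 13 macrophage changes were positive at E16.5, with a median of 0.36. For 5 of the 13 the knockout arrays lay above all controls, against 6.22% of all genes. An unadjusted p under 0.05 was seen for 5 of the 13, against 18.3% of all genes. The sum of 15 mural cell genes was 7174 to 8326 in E16.5 controls and 6679 to 11764 in knockouts, and at E14.5 the knockouts, at 7974 to 11102, lay above the controls. At E14.5, 0 of the 14 tested mural genes passed, and 9 changes were positive and 5 negative. The largest rises in E14.5 group mean were those of Acta2 (2556 ± 233 and 3551 ± 651) and Tagln (242 ± 68.9 and 659 ± 663, SD, n = 3). Pdgfrb had E14.5 means of 2080 in controls and 1893 in knockouts. On E16.5 knockout replicate 1 the median log2 deviation was 0.85 for the epithelial and 1.04 for the macrophage genes, the highest of all arrays for both lists. The sum of 8 red cell genes overlapped at both stages, with 0 of 7 past the test. At E16.5 1 of the 7 had an unadjusted p under 0.05, against 18.3% of all genes. Hba-a1 and Cldn3 were dim throughout the E16.5 arrays, at means of 7.86 to 16.4 and 38.5 to 57.9. The part of these cells in the changes of Thbd, Pdpn, Lyve1 and the growth factors was not tested.

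Between stages, many probe sets of the same gene gave different answers. In controls, 20 of 40 members passed for E16.5 against E14.5, 10 higher and 10 lower, against 64.4% of all genes (28.5% higher and 35.9% lower). This split moved with scaling: quantile normalization gave 10 higher and 18 lower members (24.7% and 41% of all genes), and median centring 9 and 20 (18.2% and 50.4%), as the median over all genes shifted by -0.13 and -0.34 on the log2 scale. The highest were Pdpn (1.98 ± 0.18, SE), Ephb4 (1.96 ± 0.19) and Tie1 (1.13 ± 0.28), and the lowest Apln (-1.85 ± 0.26), Sox7 (-0.99 ± 0.20) and Esam (-0.75 ± 0.19). Apln read 262, 252 and 295 at E14.5 and 104, 59.1, 74.2 and 31.9 at E16.5 in controls, with 272, 248 and 359 and 145, 84.4, 101 and 113 in knockouts. Sox7 fell from 299.9, 363 and 346 at E14.5 to 175, 151, 145 and 175 at E16.5 in controls, and its knockout arrays read 264, 397 and 393 at E14.5 and 154, 106, 192 and 172 at E16.5. Esam, an adhesion molecule of endothelial junctions, read 584, 549 and 609.9 at E14.5 and 386, 332, 314 and 325 at E16.5 in controls, with 576, 528 and 529 and then 527, 237, 384 and 352 in knockouts. All 6 kept their direction under both scalings, with Tie1 at 0.81 and 0.79. For these 6 the control arrays of the stages did not overlap, as for 67.6% of all genes.

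For 15 members with at least 2 probe sets tested, the stage change differed between probe sets of a gene by a median of 1.70 and by up to 3.97 on the log2 scale. For 6 of the 15, 1 probe set rose and another fell. Efnb2 ran from -0.71 to 3.26, Cdh5 from 0.03 to 3.54, Angpt2 from 0.52 to 3.70 and Vegfa from -0.34 to 2.12. Over all 6143 genes of this kind the median was 1.42, and 31.9% went both ways. The knockout change at E16.5 differed by a median of 0.30 and at most 0.72 between probe sets of the same 15 genes. The Gapdh difference separated all E14.5 from all E16.5 arrays, by more than it separated E16.5 knockouts from E16.5 controls. The bioB signal also separated the stages. Stage therefore cannot be told apart here from the reach of labelled RNA or from the bioB level. With the Gapdh difference as a covariate 0 of 40 members passed for stage in limma. All of the 6 leading genes had a single probe set above the filter.

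**Figure D5:**
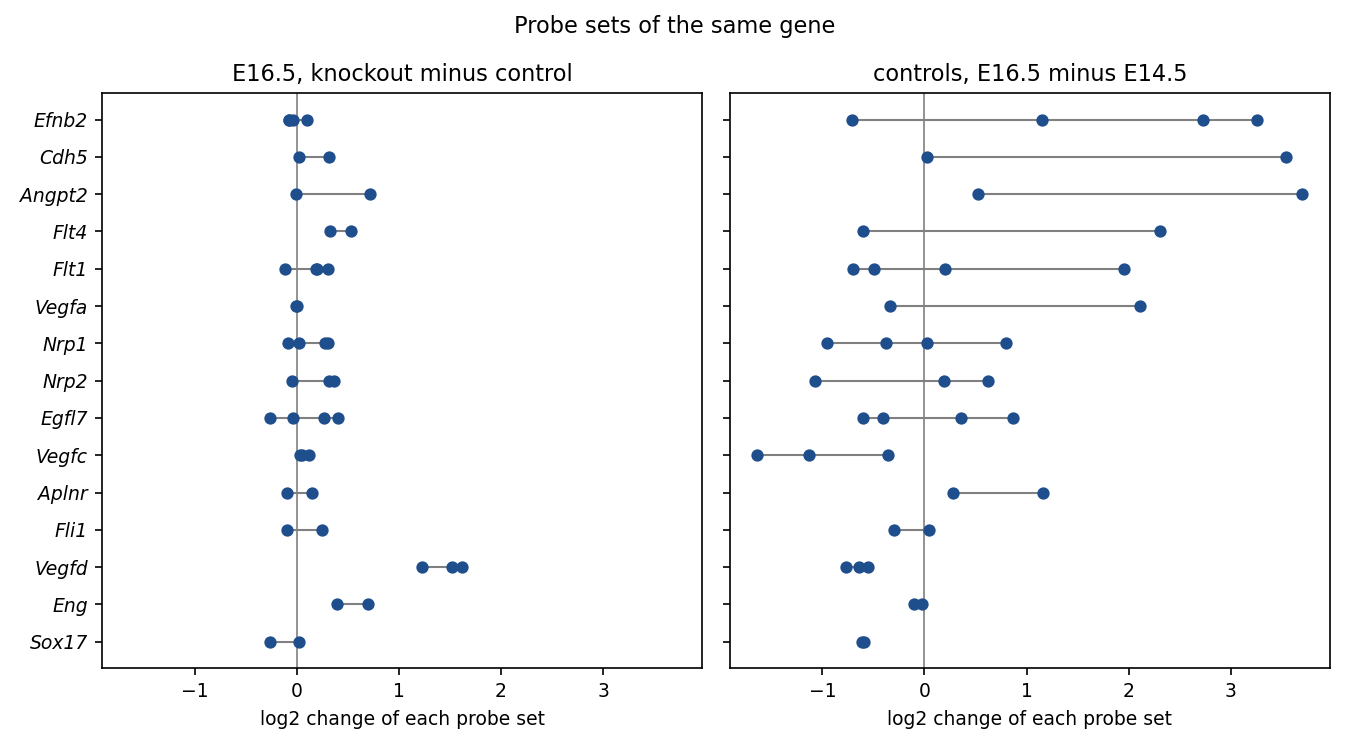
Log2 change of each tested probe set (points) of the 15 members with several, joined by a line per gene, for E16.5 knockout minus control (left) and for E16.5 minus E14.5 in controls (right), on the same axis. Probe sets of a gene lie within 0.72 of each other on the left and up to 3.97 apart on the right.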

How the data were processed

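Total RNA of whole fetal ovaries from 14 samples was measured on single-colour Affymetrix 3' arrays. Per the submitters' processing notes, the authors used Affymetrix Expression Console with MAS5, and the deposited values are linear signal intensities. On each array the mean without the top and bottom 2% was 500, tested on the files. The 14 arrays were the replicates, and their number limits the precision.

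Here log2(intensity + 16) of the deposited signals was used with no further normalization. Each gene was represented by the probe set with the highest mean log2 value over all arrays, among those with a single symbol in GEO's platform annotation. Of 45037 probe sets without controls, 932 had several symbols and 9160 none. Genes whose mean log2 value lay above the 40th percentile of probe sets (equal to a signal of 62.0) were tested in limma 3.58.1 under R 4.3.3, with lmFit and eBayes with a trend over all 4 groups, two-sided, with Benjamini-Hochberg adjustment at 0.05. A fit over 27022 probe sets was run the same way, and the code was tested on simulated data.

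The members and lists were chosen with earlier results of these data known. Named were members past the threshold or with E16.5 arrays that did not overlap, the 2 tested genes per class with the highest signal, the 3 genes that led each direction between stages, and from other lists up to 4 past the threshold or, where none passed, the 2 with the smallest p. Wt1, Prox1, Lyve1, Gja5 and further members and list genes were named after their values were seen. Alternatives changed the pseudocount, normalization, filter, probe set rule, variance model, covariates, replicate block and arrays. Promoters came from RefSeq.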

Additional observations from a re-analysis of the deposited data

Results flagged for a closer look

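Of 42 groups of 4 arrays examined over 21 members at E16.5, 1 had an array that stood apart by Dixon's criterion. It was Emcn, the sialomucin of capillary and venous endothelium, in E16.5 controls: one array read 1261.7, the next 879 and the lowest 800.5, so the gap was 0.831 of the whole range. Chance alone flags about 1 in 20 such groups.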

How the results depend on the processing

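Of the 5 members that passed at E16.5, 1 (Thbd) passed without knockout replicates 1 and 4 together, 1 (Thbd) with the Gapdh covariate and 1 (Thbd) with the bioB covariate, and leaving out single arrays gave 1 to 7 members (1 without E16.5 knockout replicate 1, 3 without knockout replicate 4 or any one E16.5 control, 7 without knockout replicate 2). Member probe sets that passed numbered 6, against 1, 0 and 1 under the same 3 settings, and 1 to 7 with single arrays left out; the highest count, 9, came with the threshold at 0.10. At E14.5 leaving out single arrays gave 0 to 1 members. The stage count of 20 became 12 with the filter at the 60th percentile, 0 with the Gapdh covariate and 12 with the bioB covariate, and rose to 28 with quantile normalization and 29 with median centring. Efnb2 reversed between stages to 1.61 as the mean of its probe sets, and Esam to 1.01 with the Gapdh covariate; probe sets of Efnb2 differ in direction, and the cause for Esam was not tested. Over all genes, 176 passed at E16.5, and 16 to 494 under the alternatives. Deviations of same-numbered control and knockout samples from their group means had correlations of -0.05 to 0.43, the highest for E16.5 replicate 4. These values do not settle whether the numbers mark shared handling. The main fit did not pair the samples, and the fit with the replicate block called 5 members at E16.5. A further 29 results were gene changes and the count of all genes that passed at E16.5. Of their 796 values, 671 stayed the same, 109 were weaker, 14 stronger and 2 reversed. For a gene change, the same means an unchanged direction and side of the threshold. Weaker or stronger means that its call was lost or gained. The count was classed by its size alone, with 16 of its 28 values the same, 9 weaker and 3 stronger. Signals near background limit Prox1, Lyve1 and Gja5.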
